A study of Mus musculus with 2 samples.

Results

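The genes described here are 7 secreted WNT inhibitors: the secreted frizzled-related proteins Sfrp1, Sfrp2, Sfrp4 and Frzb (also known as Sfrp3), the WNT inhibitory factor Wif1, and the Dickkopf genes Dkk2 and Dkk3. They were taken by name from the 32285 genes of the deposited tables, and each had 1 row in both tables. The cells were mesenchymal cells sorted from the large intestine of mice over 8 weeks old, negative for the leukocyte protein CD45, the epithelial protein EpCAM and the endothelial protein CD31, and positive for gp38 (podoplanin, a fibroblast surface protein). Each group was 1 droplet library of 3' ends: GF, from Balb/c mice, and ff, from C57BL/6 mice. Germ-free status is given for GF by its name and the series' design text alone, and the abbreviation ff is not spelled out in the sources used here. Strain, library and germ-free status therefore cannot be told apart, the sources used here do not say how many mice went into a library, and a single library per group allows no test between groups. The labels name no allele or treatment for either group, while the title of the series mentions Apc_Min/+ mice, a model of intestinal tumours.

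WNT proteins bind Frizzled receptors and the co-receptors LRP5 and LRP6 and stabilise beta-catenin, and in the colon this signal keeps the stem cells at the base of the crypt dividing. Secreted frizzled-related proteins carry a Frizzled-like domain and bind WNT proteins outside the cell, Wif1 binds WNT proteins through its own domain, and Dkk2 binds LRP5 and LRP6 and blocks them with the help of Kremen receptors. Dkk3 belongs to the Dickkopf family by sequence but is not established as an LRP6 antagonist. Mesenchymal cells near the crypt are a known source of both WNT proteins and these inhibitors.

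The members lie on separate loci of the GRCm38 genome, the assembly also called mm10, with positions from the GENCODE vM21 annotation. Sfrp1 (ENSMUSG00000031548) is at chr8:23411502-23449632 and Sfrp2 (ENSMUSG00000027996) at chr3:83766321-83774316, both on the plus strand. Sfrp4 (ENSMUSG00000021319) is at chr13:19623104-19632994 on the plus strand and Frzb (ENSMUSG00000027004) at chr2:80411970-80447625 on the minus strand. Wif1 (ENSMUSG00000020218) is at chr10:121033960-121100650 on the plus strand. Dkk2 (ENSMUSG00000028031) is at chr3:132085292-132180304 on the plus strand and Dkk3 (ENSMUSG00000030772) at chr7:112116017-112159057 on the minus strand. All are annotated as protein-coding genes.

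The promoter table from RefSeq (GRCm38.p6) matched 4 of the 7 members. The sequence upstream of the annotated gene start is shown for 3 of them that differed in their distribution. Among the fibroblast-like clusters described below, Wif1 and Dkk2 had their highest level in the Fgfbp1-led cluster, and Sfrp2 had no UMI there. The counting intervals of Wif1 and Dkk2 there overlapped those of the next cluster, except for Dkk2 in GF. The 3 sequences are given here. They cover chr10:121033754-121033959 for Wif1, chr3:83766071-83766320 for Sfrp2 and chr3:132085042-132085291 for Dkk2, all read on the plus strand, 5′ to 3′. Capitals mark matches on either strand to the forkhead core TGTTTA, the TCF/LEF core CTTTG (the motif of the factors that act with beta-catenin) and the TATA box TATAAA.
Wif1: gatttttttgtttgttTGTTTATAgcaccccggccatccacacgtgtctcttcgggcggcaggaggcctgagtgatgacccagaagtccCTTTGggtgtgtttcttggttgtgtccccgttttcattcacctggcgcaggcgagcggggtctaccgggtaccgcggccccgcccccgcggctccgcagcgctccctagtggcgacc
Sfrp2: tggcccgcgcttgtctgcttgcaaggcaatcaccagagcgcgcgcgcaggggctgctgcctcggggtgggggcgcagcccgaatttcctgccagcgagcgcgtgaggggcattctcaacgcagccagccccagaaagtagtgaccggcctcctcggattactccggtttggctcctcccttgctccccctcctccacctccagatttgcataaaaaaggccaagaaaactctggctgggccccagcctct
Dkk2: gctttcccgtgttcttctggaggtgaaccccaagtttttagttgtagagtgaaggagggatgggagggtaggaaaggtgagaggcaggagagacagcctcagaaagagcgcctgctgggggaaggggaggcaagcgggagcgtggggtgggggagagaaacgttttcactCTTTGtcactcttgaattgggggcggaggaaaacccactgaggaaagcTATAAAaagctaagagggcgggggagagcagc
The 206 bases of Wif1 held 1 forkhead core, which overlaps a TATA box match on the minus strand, and 1 TCF/LEF core. In windows of that length a forkhead core occurred in 10.5%, a TCF/LEF core in 43.1% and a TATA box in 9.39% of the 32851 promoters in the table. The 250 bases of Dkk2 held 1 TCF/LEF core and 1 TATA box, which starts 32 bases before the gene start, and those of Sfrp2 held none of the 3 motifs. In windows of 250 bases the shares were 12.03% for the forkhead core, 48.6% for the TCF/LEF core and 12.4% for the TATA box. A match is a description of the letters and not evidence of a bound site.

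The count table of GF held 16388 barcodes with 105331294 UMIs (unique molecular identifiers, 1 per captured transcript) and that of ff held 13704 barcodes with 119866589 UMIs. After filtering and removal of doublets, 14299 GF and 12164 ff cells were kept, with medians of 6351 and 8861.5 UMIs. The libraries shared 55 cell barcodes, 45 of them among kept cells. The members, WNT ligands, R-spondins and other listed secreted or membrane WNT regulators were kept out of the clustering genes. WNT receptors and response genes were not kept out. Clusters are named by a leading gene. Fibroblast-like cells, the pool used below, were 12520 in GF (87.6% of kept cells) and 11705 in ff (96.2%). Lymphocytes, here and below the cells of the named B and T cell-like classes, were 1122 in GF and 74 in ff. They leave out the unnamed Ccl5-led cluster (107 GF and 32 ff cells), which carried the T cell markers Cd3e, Cd3d, Trbc2 and Il7r. In the pool, Pdpn (gp38) stood at 339 CPM (UMIs of the gene per 1000000 UMIs of the cells) in GF and 274 CPM in ff, Ptprc (CD45) at 1.44 CPM in GF and 0.132 CPM in ff, Epcam at 0.137 CPM in GF and 0.293 CPM in ff, and Pecam1 (CD31) at 0.721 CPM in GF and 0.596 CPM in ff. Intervals given here are exact at the 95% level and cover counting error only.

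All 7 inhibitors were detected in the pool of both libraries. Wif1 lay almost wholly in Foxl1-high-like cells and Sfrp4 was concentrated in adventitial or submucosal fibroblast-like cells. Sfrp1, Sfrp2 and Frzb were found mainly in the remaining fibroblast-like cells, while Dkk2 and Dkk3 crossed these borders. Over the 17 such clusters that held 50 cells or more from GF and from ff alike, the log2 level of each member correlated between GF and ff at r = 0.95 for Sfrp1, 0.92 for Sfrp2, 0.94 for Sfrp4, 0.73 for Frzb, 0.96 for Wif1, 0.87 for Dkk2 and 0.94 for Dkk3. These correlations describe 17 points per gene that share a joint clustering.

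**Figure D1:**
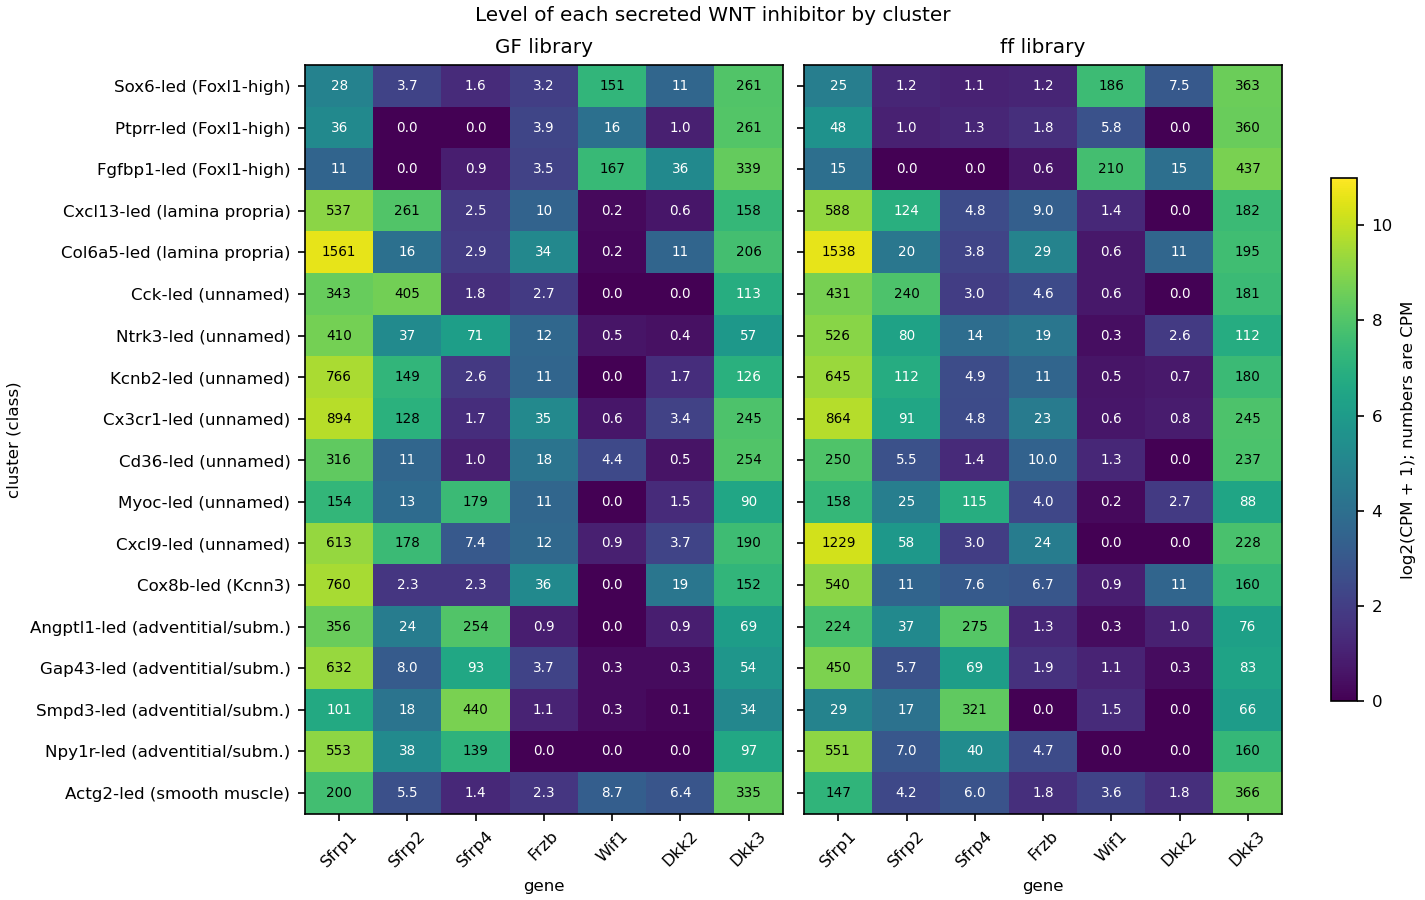
Level of the 7 inhibitors in each fibroblast-like or smooth muscle-like cluster that held 50 cells or more from GF and from ff alike. GF is on the left and ff on the right. Rows are clusters with their class, columns are genes, colour is log2(CPM + 1) and the printed numbers are CPM. Wif1 reaches 151 and 167 CPM in the Sox6-led and Fgfbp1-led clusters of GF and 186 and 210 CPM in those of ff, and Sfrp1 peaks in the Col6a5-led cluster of each library.

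Among the 17 clusters, Sfrp1, a secreted frizzled-related protein, was lower in the Foxl1-high-like ones than in all others in GF. The same held in ff except for the Smpd3-led cluster. The highest level of Sfrp1 was in the Col6a5-led cluster of lamina propria fibroblast-like cells, at 1561 CPM in GF and 1538 CPM in ff. Its lowest was in the Fgfbp1-led cluster of Foxl1-high-like cells, at 10.6 CPM in GF (interval 5.46 to 18.5) and 15.2 CPM in ff (interval 10.0 to 22.1). The median over the 17 clusters was 410 CPM in GF and 450 CPM in ff. When the clusters were put in order of level, 7 of 16 neighbouring pairs had overlapping intervals in GF and 6 of 16 in ff. Below the Col6a5-led cluster the order differed between libraries. The Cxcl9-led cluster, marked by interferon-induced genes, stood at 613 CPM in GF and at 1229 CPM in ff, where it came directly after the Col6a5-led cluster.

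Sfrp2 had a narrower distribution. Its highest level was in the Cck-led cluster, which carries the neuroendocrine genes Cck and Stmn2, at 405 CPM in GF (interval 384 to 427) and 240 CPM in ff (interval 233 to 246). The Cxcl13-led cluster of lamina propria fibroblast-like cells came next, at 261 CPM in GF and 124 CPM in ff. In the Fgfbp1-led cluster no Sfrp2 UMI was counted in either library, which allows up to 3.25 CPM in GF and 2.08 CPM in ff by the upper end of the interval. The sizes of these clusters differed between the libraries: the Cxcl13-led cluster had 3495 GF and 264 ff cells, and the Cck-led cluster 469 GF and 2099 ff cells. Lamina propria fibroblast-like cells held 69.1% of the Sfrp2 UMIs of the GF pool and 4.53% of those of the ff pool.

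Sfrp4 was highest in clusters named adventitial or submucosal by their markers, without a measure of tissue position. Its level was 440 CPM in GF and 321 CPM in ff in the Smpd3-led cluster, and 254 CPM in GF and 275 CPM in ff in the Angptl1-led cluster, both adventitial or submucosal fibroblast-like. The unnamed Myoc-led cluster, which also carries Wt1, followed at 179 CPM in GF and 115 CPM in ff. Adventitial or submucosal fibroblast-like cells held 77.7% of its UMIs in the GF pool and 82.0% in the ff pool, while they made up 20.7% and 20.3% of the cells. In the lamina propria fibroblast-like class its level was 2.58 CPM in GF and 4.07 CPM in ff.

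Frzb was low and spread over several clusters. It stood at 34.4 CPM in GF (interval 30.1 to 39.2) and 29.5 CPM in ff (interval 25.4 to 34.0) in the Col6a5-led cluster. In the Cx3cr1-led cluster, whose leading genes include haemoglobin genes, it stood at 34.7 CPM in GF and 22.6 CPM in ff. In the interstitial Kcnn3 cells-like (Cox8b-led) cluster the libraries were apart, with 36.3 CPM in GF (interval 30.5 to 42.8) and 6.65 CPM in ff (interval 4.17 to 10.1). Of 16 neighbouring clusters in its order, 15 had overlapping intervals in each library, so the order of its levels is mostly not resolved.

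Wif1 showed the sharpest division. Foxl1-high-like clusters were named by Foxl1, F3, Sox6, Bmp5, Bmp7 and Wnt5a, genes known from the telocytes or myofibroblasts that line the epithelium, apart from a small Nrg1-led cluster of 12 ff cells named by Sox6, Bmp5, Tnc and Nrg1. They were 8.23% of the GF pool and 18.0% of the ff pool, and they held 96.8% of its Wif1 UMIs in GF and 98.1% in ff. Within the class, Wif1 itself was divided. The Fgfbp1-led cluster stood at 167 CPM in GF (interval 144 to 193) and 210 CPM in ff (interval 189 to 233), and the Sox6-led cluster at 151 CPM in GF (interval 141 to 161) and 186 CPM in ff (interval 179 to 194). The Ptprr-led cluster, whose leading genes include Nrg1, the neuregulin ligand of ErbB receptors, stood at 15.6 CPM in GF (interval 8.92 to 25.3) and 5.84 CPM in ff (interval 3.70 to 8.76). Its level in the other 14 clusters did not pass 4.37 CPM in either library.

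Dkk2 was the rarest member, with 300 UMIs in the GF pool and 283 in the ff pool. Its level in the Fgfbp1-led cluster was 36.1 CPM in GF (interval 25.9 to 49.0) and 15.2 CPM in ff (interval 10.0 to 22.1), and in the Ptprr-led cluster 0.975 CPM in GF and 0 CPM in ff, where 0 UMIs allow up to 0.937 CPM. The interstitial Kcnn3 cells-like cluster had 19.0 CPM in GF and 11.2 CPM in ff, and the Col6a5-led cluster 10.9 CPM in GF and 11.4 CPM in ff. Its UMIs were thus shared among Foxl1-high-like (35.3% in GF, 45.6% in ff), lamina propria fibroblast-like (28.3% in GF, 25.1% in ff) and Kcnn3 cells-like (24.3% in GF, 13.1% in ff) cells.

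Dkk3 was present in every cluster, at 33.5 to 339 CPM in GF and 65.8 to 437 CPM in ff. The Fgfbp1-led cluster was highest and the Smpd3-led cluster lowest in both libraries, and the Smpd3-led cluster is where Sfrp4 was highest. In ff the Smpd3-led cluster had 62 cells. Its intervals there overlapped those of the Angptl1-led cluster for Dkk3 and for Sfrp4, so neither rank is resolved in ff. After the Fgfbp1-led cluster came the Sox6-led and Ptprr-led clusters, at 261 CPM each in GF and at 363 and 360 CPM in ff. In GF their intervals overlapped those of the Cd36-led (254 CPM) and Cx3cr1-led (245 CPM) clusters, so that part of the order is not resolved there, while in ff they did not overlap.

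**Figure D2:**
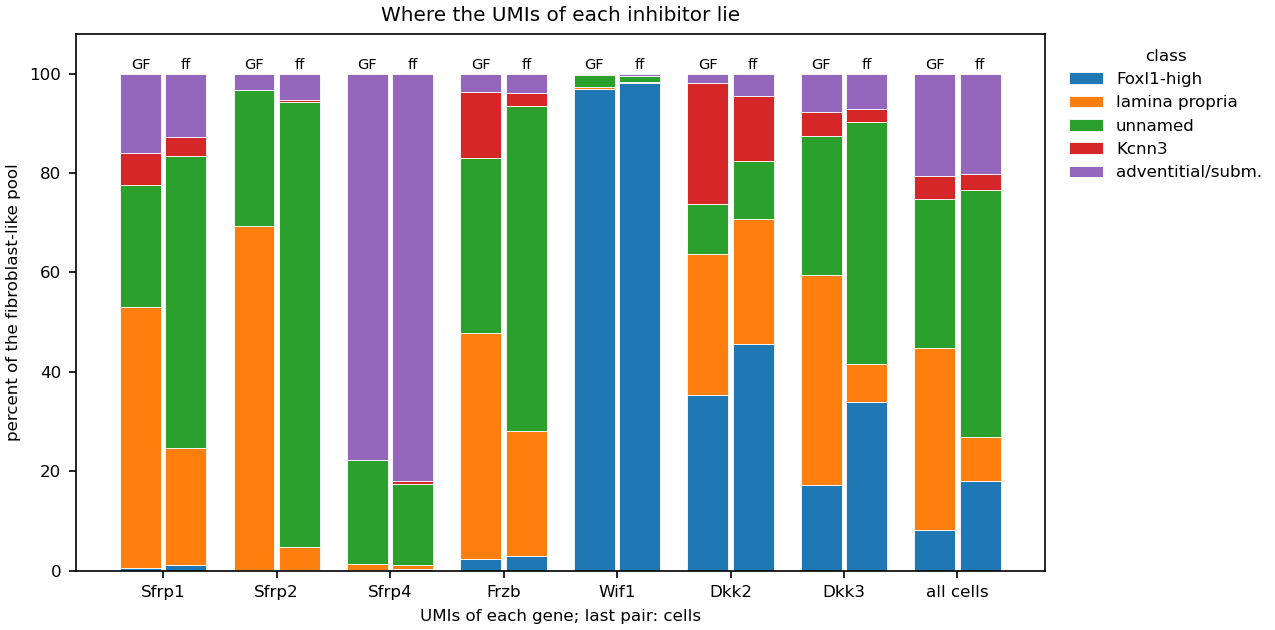
Percent of the UMIs of each gene in the fibroblast-like pool that each class holds, GF bar left of ff bar, with the percent of cells at the far right. Wif1 lies almost wholly in the Foxl1-high-like class (96.8% in GF, 98.1% in ff) and Sfrp4 in the adventitial or submucosal class (77.7% in GF, 82.0% in ff), while Sfrp2 moves between the lamina propria and unnamed classes.

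Set against the other fibroblast-like cells of the same library, Foxl1-high-like cells were at least 1.5-fold apart for 7 of 7 members in the same direction in both libraries: 3 higher (Wif1, Dkk2 and Dkk3) and 4 lower (Sfrp1, Sfrp2, Sfrp4 and Frzb). The background for this call was 21.3% of 13168 measured genes (10.3% higher, 11.1% lower). The median log2 ratio was -1.69 for the members and 0.16 for all genes in GF, and -2.17 and 0.10 in ff, so the members' median hides opposite directions. Frzb was at 3.32 CPM against 12.9 CPM in GF and 1.24 CPM against 9.04 CPM in ff, a log2 ratio of -2.17 in ff that was -1.07 at a finer clustering (resolution 2). Dkk2 was at 13.5 CPM against 2.44 CPM in GF and 6.64 CPM against 1.78 CPM in ff. Dkk3 was at 272 CPM against 129 CPM in GF and 369 CPM against 161 CPM in ff. For adventitial or submucosal fibroblast-like cells the count was 6 of 7, 1 higher (Sfrp4) and 5 lower (Sfrp2, Wif1, Frzb, Dkk2 and Dkk3), against a background of 17.5% of genes (4.49% higher, 13.0% lower). For lamina propria fibroblast-like cells it was 3 of 7, with Sfrp1 higher and Sfrp4 and Wif1 lower (background 7.28%, of which 2.79% higher and 4.48% lower). For interstitial Kcnn3 cells-like cells it was 4 of 7, with Dkk2 higher and Sfrp2, Sfrp4 and Wif1 lower (background 15.2%, of which 6.78% higher and 8.38% lower). The lamina propria class is mostly the Cxcl13-led cluster in GF and the Col6a5-led cluster in ff, so its class values differ in make-up.

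Gates on 1 gene were then used to divide the pool without clusters. A cell was positive with at least 1 UMI, and each cell was first thinned to 2000 UMIs, which left out 391 GF and 229 ff cells. Before gating, the thinned share of pool cells with the gene was 49.7% in GF and 43.0% in ff for Sfrp1 (72.5% and 68.2% unthinned), 13.8% in GF and 9.10% in ff for Sfrp2 (23.8% and 20.1% unthinned), and 7.37% in GF and 4.96% in ff for Sfrp4 (13.8% and 10.00% unthinned). It was 2.29% in GF and 1.44% in ff for Frzb (6.64% and 5.33% unthinned), 1.82% in GF and 4.08% in ff for Wif1 (3.55% and 8.47% unthinned), 0.676% in GF and 0.532% in ff for Dkk2 (1.43% and 1.28% unthinned), and 22.8% in GF and 31.0% in ff for Dkk3 (51.7% and 69.9% unthinned). Lymphocytes, which should lack these genes, gave 1.40% in GF and 5.41% in ff for Sfrp1 and 0.644% in GF and 5.41% in ff for Dkk3. For Wif1 and Dkk2 they gave 0 of 931 cells in GF and 0 of 74 in ff, which allows up to 0.322% and 4.05% of cells. The median depth was 2544 UMIs for GF and 4199.5 UMIs for ff lymphocytes, against 6700 and 8916 in the pool. The Sfrp1 share of Foxl1-high-like cells was 4.68% in GF and 4.198% in ff (10.3% and 15.2% unthinned). It was above the lymphocyte share in GF and below it in ff, where the lymphocyte share rests on 4 of 74 cells. Whether it stands above background in ff was not tested.

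The gate on Acta2, smooth muscle actin, selected Wif1 cells at similar ratios, 17.4 in GF and 17.1 in ff. Of Acta2-positive cells 13.1% in GF and 19.8% in ff had Wif1, against 0.758% and 1.16% of Acta2-negative cells. F3, tissue factor, a surface protein and naming marker of the Foxl1-high-like class, gave 10.1% in GF and 14.99% in ff inside the gate, against 0.561% and 1.16% outside. Foxl1 itself gave 11.3% in GF and 15.4% in ff inside, against 1.596% and 3.83% outside, and its own UMIs were found in 2.34% of GF and 2.15% of ff cells. In all, 6 of 18 gates held Wif1 cells at least 2-fold more often in both libraries (Acta2, Adamdec1, F3, Foxl1, Myh11 and Pdgfra) and 8 at most 0.5-fold as often, among them Cd34, Cd81, Grem1 and Pi16.

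Sfrp4 was held by other gates. Dpp4-positive cells had Sfrp4 in 33.9% in GF and 31.6% in ff, against 6.53% and 4.37% outside, and Pi16-positive cells in 18.0% in GF and 18.8% in ff, against 3.02% and 2.69% outside. Dpp4 and Pi16 mark adventitial fibroblasts. Sfrp4 was held at least 2-fold more often in 5 of the 18 gates (Ackr4, Cd34, Cd81, Dpp4 and Pi16) and at most 0.5-fold as often in 10. Of the 6 gates high for Wif1, 4 were low for Sfrp4 and F3 and Pdgfra were not, and Rgs5 and Stmn2 were low for both genes. Grem1, a BMP antagonist of submucosal cells, did not separate Sfrp4, with 6.26% in GF and 3.60% in ff inside and 7.49% and 5.25% outside.

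The other members divided the cells by other gates. Sfrp1, Sfrp2 and Dkk3 were 2-fold higher in none of the 18 gates in both libraries, and Sfrp1 was at most 0.5-fold in 4 (Acta2, F3, Myh11 and Nrg1), Sfrp2 in 7 and Dkk3 in 2 (Dpp4 and Pi16). Frzb cells were held more often in the gates of Col6a5 (5.98% in GF and 5.05% in ff, against 1.995% and 1.34% outside) and of Rgs5 (6.67% in GF and 6.00% in ff, against 2.17% and 1.32%). Dkk2 cells were held more often in 5 gates, led by Col6a5 (2.99% in GF and 2.36% in ff, against 0.490% and 0.483%), on 27 GF and 7 ff cells. The Stmn2 gate held Sfrp2 cells in 36 of 154 cells in GF and 473 of 2365 in ff, ratios of 1.71 and 3.19 over the cells outside.

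**Figure D3:**
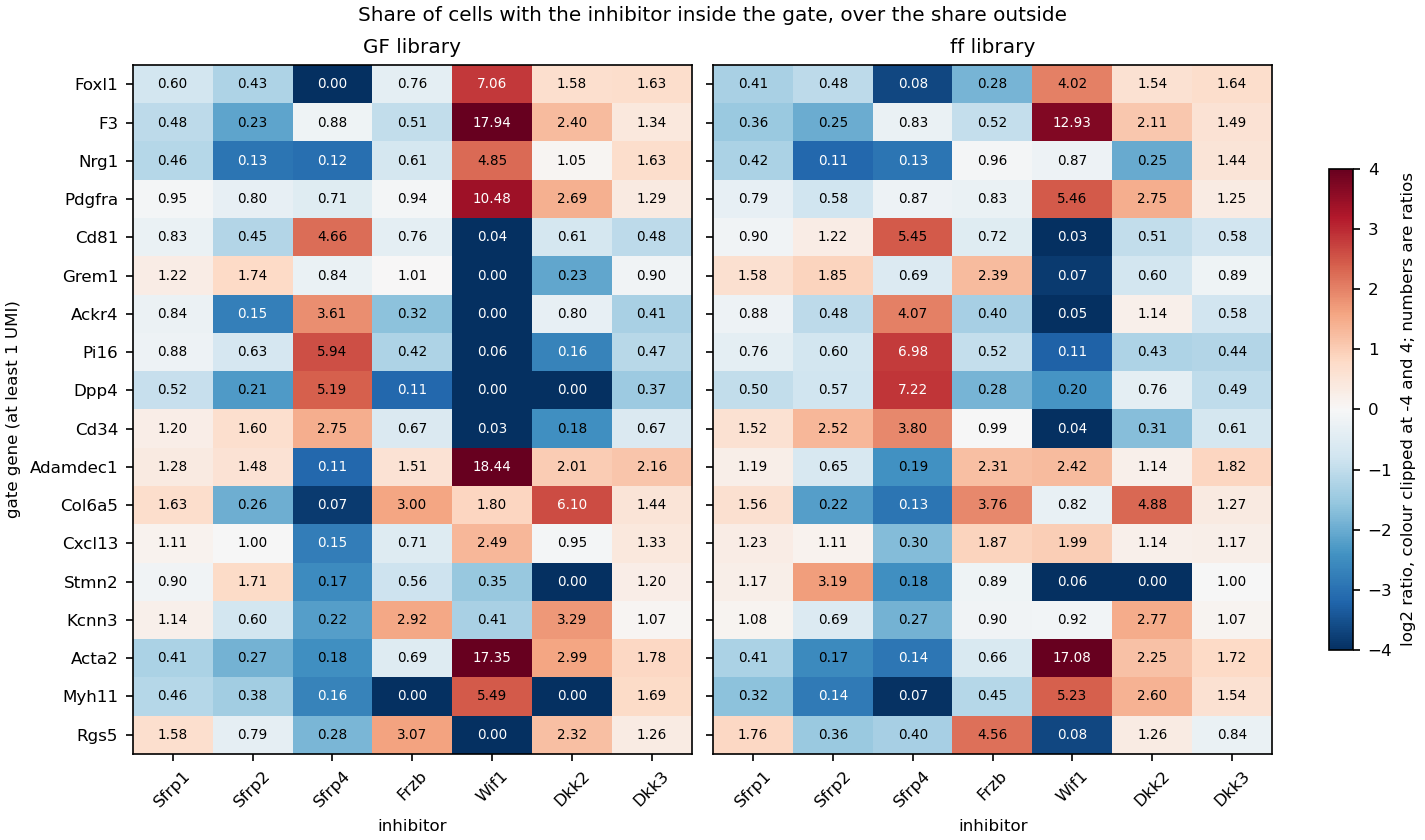
Share of cells with each inhibitor inside a gate divided by the share outside it, fibroblast-like pool thinned to 2000 UMIs, GF left and ff right. Rows are gate genes, columns are inhibitors, colour is the log2 ratio clipped at -4 and 4 and numbers are ratios. The Wif1 and Sfrp4 columns differ: Wif1 is high in the Foxl1, F3, Pdgfra and Acta2 rows and low in the Cd81, Ackr4, Pi16 and Dpp4 rows, where Sfrp4 is high.

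Inside the Foxl1-high-like class the gates divided Wif1 further. Nrg1-positive cells had Wif1 in 13.2% (29 of 220) in GF and 5.73% (25 of 436) in ff, against 22.3% and 25.8% of Nrg1-negative cells. Their intervals were 9.01 to 18.4% and 3.74 to 8.35%, against 19.5 to 25.4% and 23.7 to 28.0%. F3-positive cells had Wif1 in 22.8% in GF and 23.8% in ff, against 15.05% and 15.9%. Acta2 gave 21.5% against 18.5% in GF, where the intervals overlap, and 27.5% against 12.1% in ff, where they do not. Foxl1 gave no such division, with 17.5% against 20.97% in GF and 21.2% against 21.6% in ff.

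At this depth cells held few of the members. None was seen in 27.9% of GF and 29.9% of ff pool cells, 1 in 48.7% of GF and 48.3% of ff cells, and 2 or more in 23.5% of GF (interval 22.7 to 24.2) and 21.8% of ff cells (interval 21.04 to 22.6). Without thinning, 60.2% of GF and 66.2% of ff cells held 2 or more. The commonest combination was Sfrp1 with Dkk3 and no other member, at 9.22% of GF and 10.7% of ff cells. Wif1 with Dkk3 and no other member was seen in 0.684% of GF and 1.96% of ff cells, and Sfrp1 with Wif1 and no other member in 6 of 12129 GF and 12 of 11476 ff cells.

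Of 21 pairs, 7 were seen together at most 0.5-fold as often in both libraries, comparing cells with the first gene against cells without it, and 2 at least 2-fold more often. No such count was made over pairs of other genes, so these counts have no background. With the order in each pair reversed, 8 pairs passed the lower mark, the same 7 and Sfrp4 with Dkk3. Wif1 took part in 4 of the 7: Wif1 was seen in 0.166% of GF and 0.466% of ff cells with Sfrp1, against 3.46% and 6.81% of cells without it. No cell of 1671 in GF or 1044 in ff with Sfrp2 had Wif1, against 2.11% and 4.49% of cells without Sfrp2, and 0 cells allow up to 0.180% and 0.287%. With Sfrp4, 0 of 894 GF and 2 of 569 ff cells had Wif1, against 1.97% and 4.27% without. Of Wif1 cells, 0 of 221 in GF and 0 of 468 in ff had Frzb, against 2.33% and 1.499% of the rest. The other 3 pairs were Sfrp2 with Frzb (1.02% in GF and 0.575% in ff, against 2.50% and 1.52%), Sfrp2 with Dkk2 (1 GF and 0 ff cells) and Sfrp4 with Frzb (0.671% in GF and 0.703% in ff, against 2.42% and 1.48%). Sfrp4 with Frzb rests on 6 GF and 4 ff cells, and its intervals overlap in ff.

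The pairs seen more often were Sfrp1 with Frzb and Wif1 with Dkk2. With the order reversed, Sfrp1 with Frzb no longer passed (1.49 in GF, 1.58 in ff), and Wif1 with Dkk3 did (2.24 in GF, 2.31 in ff) beside Wif1 with Dkk2. Frzb was found in 3.39% of GF and 2.25% of ff cells with Sfrp1, against 1.21% and 0.826% without. Wif1 with Dkk2 rests on 3 GF and 6 ff cells, and its intervals overlap in each library in either order, so this pair is not resolved. Sfrp2 with Sfrp4 separated in GF, with a ratio of 0.187, and less in ff, with 0.715.

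Inside single clusters, pairs were set side by side where each member had at least 20 positive cells in each library, a filter that leaves out pairs of genes found in different clusters. Of 40 such comparisons, 1 passed the lower mark and 0 the upper mark in both libraries. Of the 7 pairs above, 2 could be examined, each in 1 cluster. Sfrp2 with Frzb in the Cx3cr1-led cluster stayed below 0.5-fold in both libraries, with Frzb in 1 of 92 GF and 0 of 77 ff Sfrp2 cells, against 8.32% and 4.39% of the cells without Sfrp2. Sfrp1 with Wif1 in the Sox6-led cluster had ratios of 0.488 in GF (4 of 35 Sfrp1 cells) and 0.983 in ff (11 of 44), with overlapping intervals in each library. The other 5 pairs could not be examined inside a cluster. Within the Foxl1-high-like class, Dkk3 was found in 40.2% of Wif1 cells in GF and 51.7% in ff, against 42.5% and 52.8% of the rest of the class, although in the pool it was 1.77-fold and 1.69-fold more frequent in Wif1 cells.

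**Figure D4:**
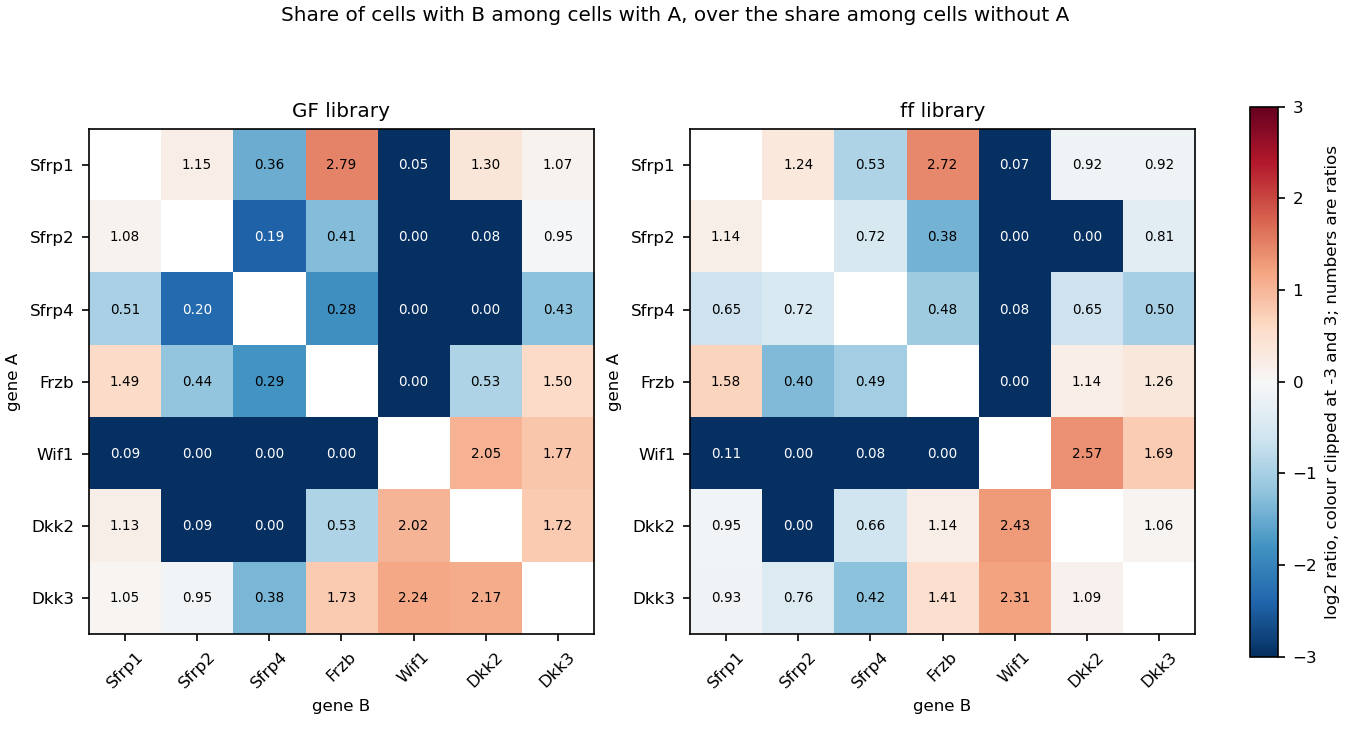
Ratio of the share of cells with gene B among cells with gene A to the share among cells without gene A, fibroblast-like pool thinned to 2000 UMIs, GF left and ff right. Colour is the log2 ratio clipped at -3 and 3 and numbers are ratios. The Wif1 row and column are dark blue for Sfrp1, Sfrp2, Sfrp4 and Frzb in both libraries and red for Dkk2 and Dkk3.

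Between the libraries, 3 of 7 members were at least 1.5-fold apart in the pool. Sfrp4 was at 75.4 CPM in GF and 42.0 CPM in ff (log2 ratio 0.83, interval 0.79 to 0.90), Frzb at 12.03 CPM in GF and 7.61 CPM in ff (log2 ratio 0.60, interval 0.53 to 0.80), and Wif1 at 12.5 CPM in GF and 28.4 CPM in ff (log2 ratio -1.12, interval -1.28 to -1.08). The background was 10.4% of 14793 genes (4.91% higher in GF, 5.48% lower), with a median log2 ratio of 0.02. Log2 ratios carry an added 1 CPM, and their intervals are for the ratio without it. Sfrp1 (log2 ratio 0.22), Sfrp2 (0.42), Dkk2 (0.27) and Dkk3 (-0.49) stayed within 1.5-fold.

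Within classes the count of members apart between GF and ff was 2 of 5 measured in Foxl1-high-like cells, Dkk2 and Frzb higher and 0 lower (background 15.2%, of which 8.49% higher and 6.7% lower). Frzb there was low, at 3.32 CPM in GF and 1.24 CPM in ff. Its 26 GF and 24 ff UMIs only just met the threshold of 50 UMIs. In lamina propria fibroblast-like cells the count was 4 of 6, Sfrp2 higher and Sfrp1, Frzb and Dkk2 lower (background 14.9%, of which 7.09% higher and 7.84% lower), again across different clusters: inside the Col6a5-led cluster the log2 ratio was 0.02 for Sfrp1, 0.22 for Frzb and -0.06 for Dkk2, and their intervals hold 0. In adventitial or submucosal fibroblast-like cells it was 1 of 5, Dkk3 lower at 49.7 CPM in GF and 80.1 CPM in ff (background 15.4%, of which 5.49% higher and 9.94% lower). This class differs in make-up too, with 822 GF and 62 ff cells in the Smpd3-led cluster and 625 GF and 1378 ff cells in the Angptl1-led cluster. In the Angptl1-led cluster the Dkk3 log2 ratio was -0.12 and its interval holds 0. It was -0.60 in the Gap43-led, -0.95 in the Smpd3-led and -0.71 in the Npy1r-led cluster, each with an interval below 0. In unnamed fibroblast-like cells it was 1 of 7, Sfrp4 higher (background 15.2%, of which 7.33% higher and 7.87% lower). Its make-up differs as well, with 1212 GF and 467 ff cells in the Ntrk3-led cluster and 469 GF and 2099 ff cells in the Cck-led cluster, where Sfrp4 stood at 1.78 CPM in GF and 2.97 CPM in ff.

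These pool values moved with the mix of cells. With GF clusters weighted by their ff shares, the log2 ratio of Wif1 was -0.27, that of Sfrp4 0.13, that of Frzb 0.36 and that of Sfrp2 0.61, and Sfrp2 was then the 1 member past 1.5-fold. Inside the Foxl1-high-like class Wif1 was at 135 CPM in GF and 152 CPM in ff (log2 ratio -0.16, interval -0.27 to -0.06). Dkk3 was lower in GF in most clusters: of 17, 10 had an interval below 0, 7 an interval that holds 0 and 0 an interval above 0. In the Sox6-led cluster it was at 261 CPM in GF and 363 CPM in ff. Sfrp4 ranged from a log2 ratio of 2.23 in the Ntrk3-led cluster, at 70.6 CPM in GF and 14.3 CPM in ff, to -1.35 in the Cox8b-led cluster. Sfrp1 had intervals above 0 in 6 clusters and below 0 in 4, with a median log2 ratio of 0.02.

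**Figure D5:**
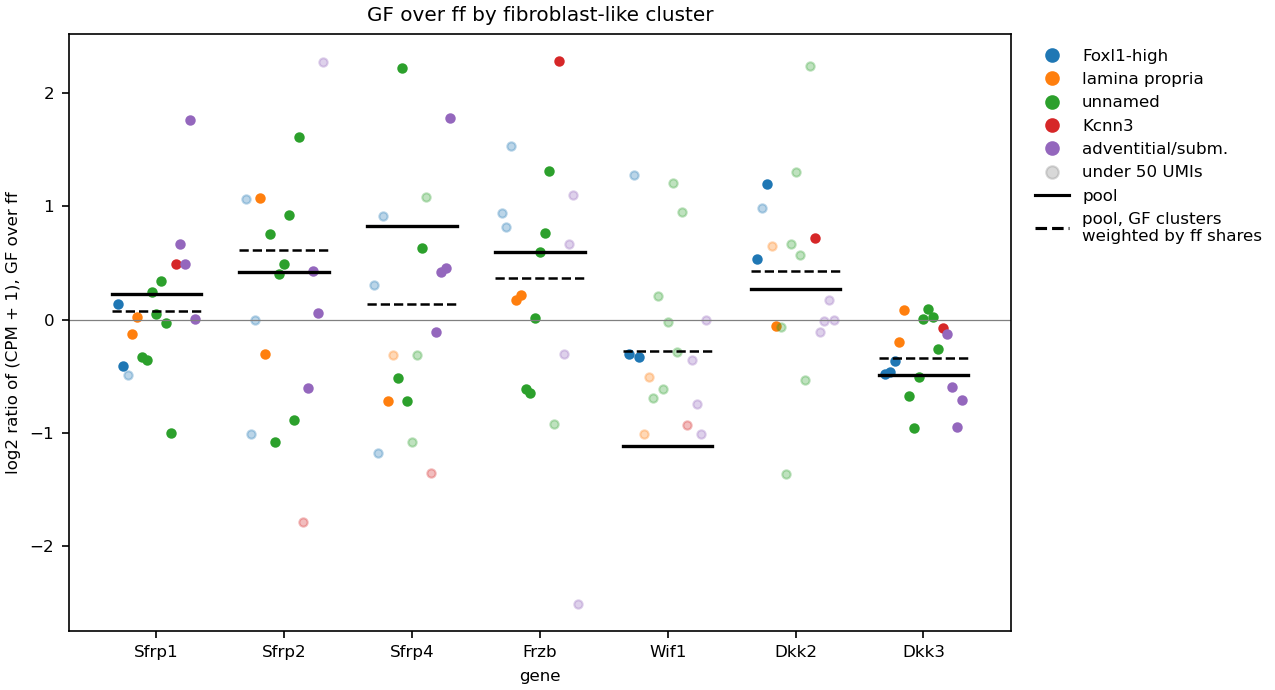
Log2 ratio of (CPM + 1), GF over ff, of each inhibitor in each of the 17 fibroblast-like clusters (points, coloured by class, pale where fewer than 50 UMIs were counted), in the pool (solid line) and in the pool with GF clusters weighted by ff shares (dashed line). The solid Wif1 line is at -1.12 and the dashed one at -0.27, and most Dkk3 points lie below 0.

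The genes whose levels followed each member most closely were ranked among 10938 genes by Pearson's r of log2(CPM + 1). This used 38 points, 19 clusters in each of 2 libraries, which share a library and a joint clustering. The clusters were the 17 fibroblast-like ones above, the smooth muscle-like Actg2-led cluster and the macrophage or dendritic cell-like Lyz2-led cluster. Wif1 was followed by Palmd (r = 0.96), the transcription factor gene Sox6 (0.92) and the synaptic vesicle gene Sv2b (0.89). Sfrp4 was followed by Efhd1 (0.96), Ces2g and Lrrn4cl (0.93 each), and Dkk3 by Plekhh2 (0.94), the elastic fibre gene Emilin1 (0.93) and the coagulation inhibitor gene Tfpi (0.93). Sfrp1 was followed by C1qtnf3 (0.90), Fam181b (0.87) and Chst7 (0.86), and Sfrp2 by the complement gene C4b (0.89), Thsd7a and Tmem26 (0.83 each). Dkk2 was followed by Hpse2 (0.80), Pde1c (0.78) and Pcdhb20 (0.76), and Frzb by the basement membrane collagen gene Col15a1 (0.77), Adamtsl2 (0.76) and Rasa3 (0.75). Among members, the lowest value was -0.78 for Sfrp1 with Wif1. These genes could take part in the clustering, and Sox6 and Col15a1 are naming markers.

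Other WNT genes were counted from fixed lists, against backgrounds over all genes of 10.3% higher and 11.1% lower in Foxl1-high-like cells and 4.91% higher and 5.48% lower in GF. Of 16 other secreted or membrane WNT regulators, 6 were measured: in Foxl1-high-like cells 1 was at least 1.5-fold higher and 4 lower in both libraries, and between GF and ff 0 were. Kremen1, the co-receptor of Dickkopf proteins, was higher in Foxl1-high-like cells (58.8 CPM against 34.2 CPM in GF, 69.6 CPM against 40.3 CPM in ff). Igfbp4, which binds insulin-like growth factors and can block WNT receptors, was lower (121 CPM against 1520 CPM in GF, 68.5 CPM against 1920 CPM in ff). Of 23 ligands and R-spondins, 13 were measured, with 2 higher and 7 lower in Foxl1-high-like cells, 1 of the 2 being the naming marker Wnt5a. The canonical ligand Wnt2 was among the lower (1.02 CPM against 32.5 CPM in GF, 0.515 CPM against 25.9 CPM in ff). Of 19 receptors 14 were measured for this comparison, with 4 higher, among them Ror2, the Wnt5a receptor (31.0 CPM against 8.04 CPM in GF, 44.3 CPM against 12.5 CPM in ff), and 2 lower. Of 16 receptors measured between the libraries, 5 were lower in GF (Fzd5, Fzd8, Lrp6, Ror1 and Ror2) and 0 higher. Of 11 WNT response genes 10 were measured: in Foxl1-high-like cells 4 were higher and 4 lower, and between the libraries 2 were lower in GF, Ccnd1 (42.4 CPM in GF, 88.4 CPM in ff) and Lef1 (5.01 CPM in GF, 11.9 CPM in ff). Kremen1, Ror2 and the 5 receptors are outside the naming rule and were chosen after their values were seen. The listed receptors and response genes could take part in the clustering that formed the Foxl1-high-like class.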

How the data were processed

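Sorted mesenchymal cells of 2 libraries, GF and ff, were analysed. The authors deposited raw UMI counts per Ensembl gene and cell barcode, made with Cell Ranger 6.0.0 on mm10 per the submitters' processing notes, with no normalization found in the values; no source used here names the annotation release. Symbols matched 32158 of 32285 identifiers. No barcode had fewer than 500 UMIs.

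Cells were kept from 500 genes and 1000 UMIs upwards if mitochondrial UMIs did not pass 10% (15066 GF, 12702 ff). Scrublet in scanpy 1.11.5 marked 767 GF (5.09%) and 538 ff cells (4.24%), which were removed. Values for clustering were logs of counts per 10000. The 2000 variable genes were chosen without the members, WNT ligands, R-spondins and other listed secreted or membrane WNT regulators, but not without WNT receptors or response genes. They were scaled within each library, followed by 30 principal components, 15 neighbours and Leiden clustering (leidenalg 0.10.2, resolution 1). This gave 30 clusters, 19 of them fibroblast-like. A class name needed at least 3 markers at 2-fold and 1 among the top 20 genes, and unnamed clusters with collagen RNA at 25% of the named fibroblast-like clusters or more joined the pool; these thresholds were set after the data had been seen. Intervals are exact Poisson for a CPM, Clopper-Pearson for a share and conditional binomial for a ratio, at 95%, and a count of 0 allows up to 3 counts where a share is given. UMIs were not divided by gene length, so levels are compared within a gene. A gene was measured from 50 UMIs upwards, summed over the libraries for GF against ff. With 1 library per group no test was made. The calculations were tested on simulated data.

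Named genes were all 7 members, the 3 most similar genes of each by Pearson's r among genes with at least 200 UMIs in each library, and listed WNT genes past fixed sizes. The members and lists were chosen with earlier results of these data known. Other scalings, pseudocounts, count and cell filters, doublets, resolutions, thinning depths and cell mixes were tried as alternatives.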

Additional observations from a re-analysis of the deposited data

Results flagged for a closer look

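For 4 members the difference between the libraries ran in opposite directions in different classes, by counting intervals that lie on opposite sides of 0; with 1 library per group these differences were not tested. The log2 ratio of Sfrp2, GF over ff, was 2.16 in lamina propria fibroblast-like cells (209 CPM in GF, 46.0 CPM in ff). In interstitial Kcnn3 cells-like cells it was -1.79 (2.35 CPM in GF, 10.6 CPM in ff), on 9 GF and 35 ff UMIs. Sfrp2 in ff also stood at 12.6 CPM in B or plasma cell-like cells, on 8 UMIs. In macrophage or dendritic cell-like cells of ff it stood at 14.0 CPM, on 10 UMIs. Whether the Kcnn3 cells-like level of Sfrp2 stands above background in ff was not tested. The lamina propria class is mostly the Cxcl13-led cluster in GF and the Col6a5-led cluster in ff. Within them the ratio of Sfrp2 was 1.07 in the Cxcl13-led and -0.30 in the Col6a5-led cluster, where its interval holds 0. For Sfrp4 it was 1.99 in unnamed fibroblast-like cells (54.2 CPM in GF, 12.9 CPM in ff) and -1.35 in Kcnn3 cells-like cells, on 9 GF and 25 ff UMIs. The unnamed class also differs in make-up, and within it the ratio ranged from 2.23 in the Ntrk3-led to -1.08 in the Cx3cr1-led cluster. For Frzb it was 2.28 in Kcnn3 cells-like cells and -0.63 in lamina propria fibroblast-like cells, but 0.17 in the Cxcl13-led and 0.22 in the Col6a5-led cluster of that class, with intervals that hold 0, so the opposite direction was not seen inside them. For Dkk2 it was 0.93 in Foxl1-high-like cells (13.5 CPM in GF, 6.64 CPM in ff) and -1.34 in lamina propria fibroblast-like cells (2.74 CPM in GF, 8.505 CPM in ff). Inside the Col6a5-led cluster it was -0.06 with an interval that holds 0, and the Cxcl13-led cluster had 14 GF and 0 ff UMIs, so the opposite direction was not seen inside these clusters either.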

How the results depend on the processing

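Alternatives were run for the pool ratios of GF over ff, the ratios of Foxl1-high-like over other cells, the share of cells with 2 or more members and the count of pairs, and none of these changed direction; gates, single clusters, other classes, likeness and WNT lists had none. The 7 of 7 members apart in Foxl1-high-like cells held under those run, but sizes moved: with doublets kept, the log2 ratio of Sfrp4 was -2.75 in GF, against -5.20 as reported, and that of Sfrp2 -3.18 in ff, against -5.57. At resolution 2 that of Sfrp1 was -2.74 in GF, against -4.33, and that of Frzb -1.07 in ff, against -2.17. The count of members apart between GF and ff, 3 as reported, was 1 with GF clusters weighted by ff shares and 1 with ff clusters weighted by GF shares (an alternative added after the data had been seen), and 2 with median-of-ratios scaling or the stricter cell filter. The share of cells with 2 or more members was 22.3% in GF with the stricter filter, 9.33% in GF and 8.44% in ff thinned to 1000 UMIs, 44.8% in GF and 42.4% in ff at 4000 UMIs, and 3.06% in GF and 2.51% in ff when a positive cell needed 2 UMIs. The last setting counted 13 pairs seen together less often, against 7. The cause of these moves was not tested, except that a share of positive cells depends on depth by construction. No paired analysis was possible because each group is 1 library, and no replicate could be left out. Low UMI numbers limit Dkk2 and Frzb most.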

Other observations

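Outside the fibroblast-like pool, the members were high in small cell groups. Interstitial cells of Cajal-like cells, the pacemakers of gut muscle (29 in GF, 20 in ff), had Dkk2 at 292 CPM in GF and 184 CPM in ff, and Dkk3 at 491 CPM in GF and 416 CPM in ff. Glia-like cells (15 in GF, 6 in ff) had Sfrp1 at 1372 CPM in GF and 1393 CPM in ff, on 83 and 36 UMIs. Smooth muscle-like cells had Dkk3 at 335 CPM in GF and 366 CPM in ff.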
